A study of Mus musculus with 29 samples.

Results

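The FoxO, LKB1 and mTOR regulators examined here are 9 of the 30025 genes of the deposited expression table, chosen by name: the forkhead transcription factor genes Foxo1, Foxo3 and Foxo4; Stk11, which encodes the kinase LKB1; Prkaa1, which encodes the alpha 1 catalytic subunit of AMPK; Tsc1 and Tsc2, which encode the TSC complex; and Mtor and Rptor, which encode the mTOR kinase and Raptor, its partner in mTORC1. All 9 were found, and each had an FPKM of at least 1 in all 29 libraries. FPKM is the number of fragments scaled to the exon length of the gene and the size of the library. None of them lies on chromosome 5, which carries the deletion studied.

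In stem cells, PI3K and AKT signaling phosphorylates FoxO proteins and keeps them out of the nucleus, where they otherwise drive genes for cell cycle arrest, stress resistance and autophagy. LKB1 activates AMPK when energy is low, AMPK and AKT act with opposite effects on the TSC complex, and the TSC complex restrains mTORC1, which promotes protein synthesis and growth. Loss of FoxO factors, LKB1, Tsc1 or Raptor in mouse hematopoietic cells is known to disturb the quiescence, survival or function of hematopoietic stem cells (HSC). Much of this pathway is controlled by phosphorylation, which RNA levels do not show.

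RNA-seq was performed on CD150hi HSC, CD150lo HSC and CD150neg multipotent progenitors (MPP; the sample labels call these CD150neg HSC), each sorted from the c-kit+, lineage-negative, Sca-1+ compartment without CD41 or CD48. The mice were 5 5A3+/del animals, which carry 1 copy of a germline deletion of chromosome band 5A3 in all cells, and 5 wild-type (WT) littermates, all on a C57BL/6J background and 12.42 to 13.85 weeks old. Each combination had 5 libraries, apart from the CD150neg MPP of 5A3+/del mice with 4, and a library is named here by the number of its mouse. The deletion was made in embryonic stem cells and is present in every tissue, so differences between genotypes need not arise within the sorted cells.

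The depth recovered from the values was 21229490 to 38797569 fragments per library, with a median of 26967107. The 10 tested genes between Fbxl13 and Srpk2, the interval removed by the deletion, had a median ratio of 5A3+/del to WT of 0.537 in CD150hi HSC, with 0.527 in the CD150lo and 0.461 in the CD150neg cells. In the same order 10, 10 and 9 of the 10 were lower in 5A3+/del, and 4, 3 and 4 were called lower. Their summed level in CD150neg MPP was 191 to 201 in WT and 158 to 162 in 5A3+/del libraries. Slamf1, the gene for CD150, ran from 9.97 to 22.6 FPKM in CD150hi HSC, from 0.18 to 2.64 in CD150lo HSC and from 0.00951 to 0.296 in CD150neg MPP. Of the B and T cell markers, Pax5 was listed at 0 in 15 and Cd3e in 19 of the 29 libraries, and Cd79a, the highest of them, reached at most 2.85 FPKM. The granulocyte and monocyte list (Elane, Mpo, Prtn3, S100a8 and Lyz2) summed to between 205 and 1060 FPKM, of which Lyz2 made up at least 148 in every library and S100a8 ranged from 0 to 737. The erythroid and megakaryocyte lists summed to 4.91 to 27.3 and 21.0 to 55.1 FPKM. The 5A3+/del CD150hi HSC library of mouse 1 and the WT CD150hi HSC library of mouse 2 stood apart, with 141 and 99 genes more than 2-fold above every other library, against 31 in the next one and a median of 9. The 3 libraries of WT mouse 3 had Xist at 234 to 319 FPKM, against at most 0.470 in the others, and lacked all but traces of 4 Y-linked genes. The labels used here give no sex, and leaving out WT mouse 3 changed no call for the 9 genes.

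Foxo3 had by far the highest level of the 9 genes, and the ranges of Foxo3 and Foxo1 did not overlap. Over all libraries the mean normalized FPKM of Foxo3 was 44.8 ± 6.07 (SD, n = 29 libraries), and Foxo3 lay above Foxo1 in 29 of 29 libraries. Foxo1 followed with 12.8 ± 3.60, Prkaa1 with 11.6 ± 1.70 and Tsc2 with 10.9 ± 1.37. The order of these 3 neighbors was not stable: Foxo1 lay above Prkaa1 in 14 of 29 libraries, and Prkaa1 above Tsc2 in 20. Stk11 had a mean of 7.71 ± 1.23, Mtor of 7.60 ± 1.119 and Tsc1 of 6.82 ± 1.10, and Stk11 exceeded Mtor in only 15 of 29 libraries. Tsc2 exceeded Stk11, and Tsc1 exceeded Rptor, in all 29 libraries, although the ranges of both pairs overlapped. The lowest levels were those of Rptor, at 3.68 ± 0.621, and Foxo4, at 3.66 ± 3.40, a mean that rests on 1 library described below. FPKM is scaled here to all annotated exons of a gene, which need not all be in the transcripts expressed. The order between genes is therefore approximate.

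**Figure D1:**
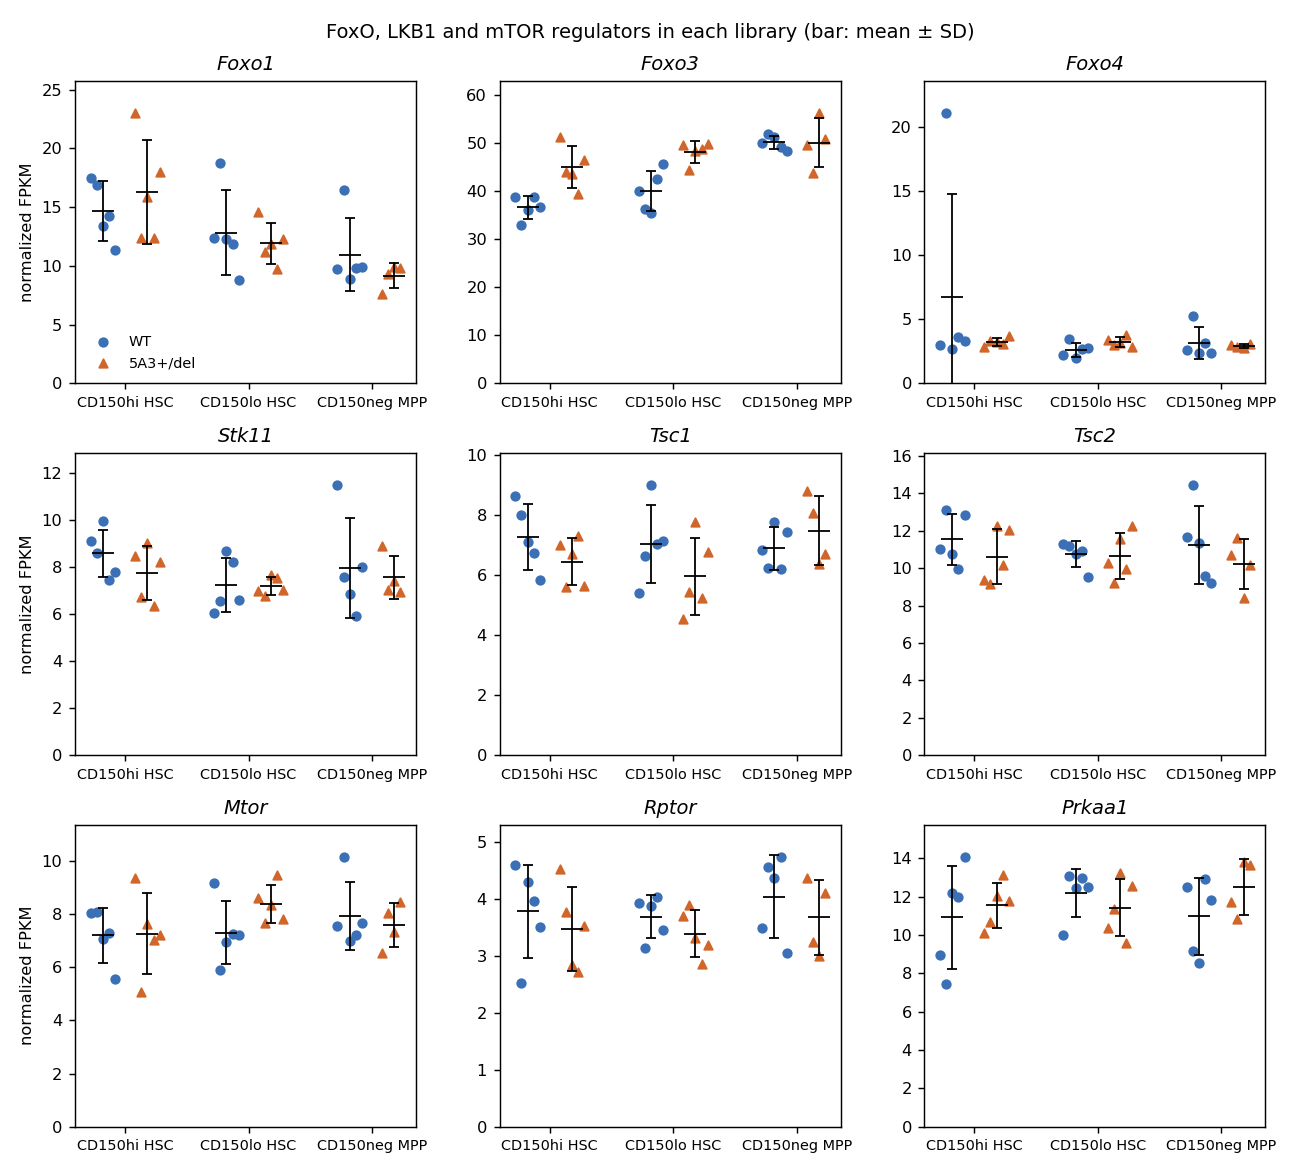
Normalized FPKM (vertical axis, linear from 0) of each of the 9 genes in every library, by sorted population and genotype; circles are WT, triangles 5A3+/del, and the bars give the mean and SD of each group. Averaged over the genotypes, Foxo1 falls and Foxo3 rises from CD150hi HSC to CD150neg MPP, but Foxo3 rises in only 2 of 4 5A3+/del mice. The LKB1, TSC and mTOR genes passed no test, and the single Foxo4 point at 21.1 stretches its SD bar below 0, where the axis ends.

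Between CD150hi HSC and CD150neg MPP, the populations at the ends of the CD150 gate, Foxo1 and Foxo3 changed in opposite directions. Foxo1 was 1.49-fold higher in CD150hi HSC and Foxo3 was at 0.81 of its CD150neg MPP level, both on the log2(FPKM + 1) scale and averaged over the genotypes. No other of the 9 genes passed the test. The share called among all genes was 13.2%, 2033 of 15409 tested, and 2 of 9 members is a count close to that background. In sorted bulk RNA, fewer cells with a transcript and less transcript per cell cannot be told apart. The stretches upstream of both genes are shown first, because these are the 2 members whose RNA levels passed the test.

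The stretch before each start is given 5′ to 3′ on the strand of the gene, from RefSeq promoter windows (GRCm38.p6) that matched mm9 exactly and once on their chromosome, with capitals marking the GC box GGGCGG and the CCAAT box on either strand (CCGCCC and ATTGG on the other). The Foxo1 stretch is chr3:52072009-52072258 on the plus strand, directly before the annotated gene at chr3:52072259-52154031. The Foxo3 stretch is chr10:41996562-41996751 on the minus strand, directly before the annotated gene at chr10:41901647-41996561.
Foxo1: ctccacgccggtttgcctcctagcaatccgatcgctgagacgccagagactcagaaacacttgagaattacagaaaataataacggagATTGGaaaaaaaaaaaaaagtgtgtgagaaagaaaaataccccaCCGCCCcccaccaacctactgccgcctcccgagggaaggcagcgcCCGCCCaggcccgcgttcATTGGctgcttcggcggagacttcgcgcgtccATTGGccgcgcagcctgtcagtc
Foxo3: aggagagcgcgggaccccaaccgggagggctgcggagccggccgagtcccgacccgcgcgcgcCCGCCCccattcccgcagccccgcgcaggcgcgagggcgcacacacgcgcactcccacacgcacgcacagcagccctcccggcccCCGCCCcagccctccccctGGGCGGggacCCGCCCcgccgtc

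The Foxo1 stretch held 3 CCAAT boxes and 2 GC boxes, and the Foxo3 stretch held 4 GC boxes and no CCAAT box. Among 32851 mouse promoter windows of 250 bases upstream, 33.8% held a CCAAT box and 32.7% a GC box on either strand. The forkhead element GTAAACA, present in 3.17% of windows, and the E-box CACGTG, present in 6.02%, were in none of the windows of the 8 members that had an entry; these matches describe letters and no binding was measured. The printed stretches were 81.6% G and C for Foxo3, over 190 bases, and 56.0% for Foxo1, over 250 bases.

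Foxo1 had normalized FPKM values of 17.4, 16.9, 13.4, 14.3 and 11.4 in the CD150hi HSC of WT mice 1 to 5, and of 23.0, 12.4, 15.8, 12.4 and 18.0 in those of 5A3+/del mice 1 to 5. In CD150lo HSC the values were 12.3, 18.7, 12.3, 11.8 and 8.83 in WT mice and 14.6, 11.2, 11.8, 9.75 and 12.3 in 5A3+/del mice. In CD150neg MPP they were 9.73, 16.4, 8.86, 9.84 and 9.86 in WT mice and 7.58, 9.33, 9.93 and 9.78 in 5A3+/del mice. The CD150hi and CD150neg values overlapped only through the 16.4 of WT mouse 2, and within each mouse CD150hi HSC were higher than CD150neg MPP in 9 of 9 mice. The mean fell from 15.5 ± 3.51 (SD, n = 10) in CD150hi HSC over 12.4 ± 2.72 (n = 10) in CD150lo HSC to 10.1 ± 2.47 (n = 9) in CD150neg MPP. The difference between the end populations was 0.57 in log2(FPKM + 1) (SE 0.13, 95% interval 0.30 to 0.85, limma adjusted p = 0.0032). The steps between neighboring populations did not pass: 0.30 from CD150lo to CD150hi HSC (adjusted p = 0.188) and 0.27 from CD150neg MPP to CD150lo HSC (adjusted p = 0.629).

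Foxo3 had values of 38.7, 33.0, 36.1, 38.8 and 36.7 in the CD150hi HSC of WT mice 1 to 5, and of 51.3, 44.0, 43.5, 39.4 and 46.4 in those of 5A3+/del mice. In CD150lo HSC they were 40.0, 36.3, 35.5, 42.4 and 45.5 in WT mice and 49.5, 44.3, 48.4, 48.7 and 49.8 in 5A3+/del mice. In CD150neg MPP they were 49.97, 51.8, 51.2, 49.2 and 48.4 in WT mice and 49.6, 43.7, 56.2 and 50.9 in 5A3+/del mice. Among WT mice the CD150hi and CD150neg values did not overlap, and among 5A3+/del mice they did. How many of all genes separate so between populations was not counted. The mean rose from 40.8 ± 5.49 (SD, n = 10) in CD150hi HSC over 44.1 ± 5.34 (n = 10) to 50.1 ± 3.30 (n = 9) in CD150neg MPP. CD150hi HSC differed from CD150neg MPP by -0.30 in log2(FPKM + 1) (SE 0.07, 95% interval -0.44 to -0.16, limma adjusted p = 0.00262), and Foxo3 was lower in CD150hi HSC in 7 of 9 mice. From CD150lo HSC to CD150neg MPP the difference of -0.19 missed the threshold (adjusted p = 0.368), as did that of -0.11 between the HSC populations (adjusted p = 0.387).

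**Figure D2:**
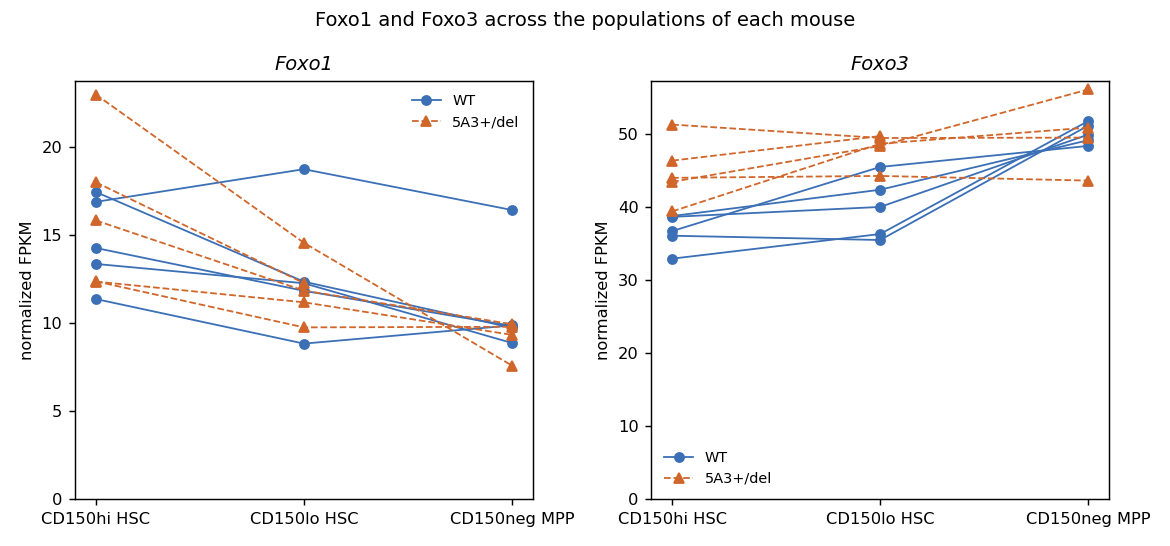
Normalized FPKM (vertical axis, linear from 0) of Foxo1 and Foxo3 in the populations of each mouse; solid lines with circles are WT mice, dashed lines with triangles 5A3+/del mice, and each line joins the libraries of 1 mouse. Foxo1 falls from CD150hi HSC to CD150neg MPP in 9 of 9 mice, and the WT lines of Foxo3 start below the 5A3+/del lines and meet them in CD150neg MPP.

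The gap of Foxo3 between CD150hi HSC and CD150neg MPP passed the test in WT mice taken alone but not in 5A3+/del mice. Among WT mice it was -0.44 (SE 0.09, adjusted p = 0.00187), lower in CD150hi HSC in 5 of 5 mice, and among 5A3+/del mice alone -0.15 (SE 0.10, adjusted p = 0.484), lower in 2 of 4. The test of this difference between genotypes gave 0.29 (SE 0.14, adjusted p = 0.598), so that the gaps were not shown to differ. For Foxo1 the order was the other way, 0.41 (adjusted p = 0.183) in WT and 0.74 (adjusted p = 0.0177) in 5A3+/del mice, with a difference of 0.33 (SE 0.27, adjusted p = 0.803). By limma, 0 of 15409 genes passed any of the 3 tests of such a difference, with 1227, 614 and 771 genes at an unadjusted p under 0.05.

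Because the factors moved in opposite directions, the balance of FoxO transcripts shifted along the CD150 gate. The ratio of Foxo3 to Foxo1 in normalized FPKM had a median of 2.71 in CD150hi HSC (1.95 to 3.57), 3.77 in CD150lo HSC (1.94 to 5.16) and 5.14 in CD150neg MPP (3.16 to 6.54). It was higher in CD150neg MPP than in CD150hi HSC in 9 of 9 mice. Foxo1 and Foxo3 were combined after both had passed this comparison, so the ratio restates their differences and is no separate result. Foxo1 alone was already lower in CD150neg MPP in 9 of 9 mice. Foxo3 contributed a median of 68.9% of the summed FPKM of the 3 FoxO genes in CD150hi HSC and 79.8% in CD150neg MPP, and Foxo1 25.2% and 15.6%. The sort marker Cd48 also moved along this gate, from a median of 0.354 FPKM in CD150hi HSC to 2.68 in CD150lo HSC and 7.34 in CD150neg MPP; its part in the FoxO differences was not tested.

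Foxo4, on the X chromosome, lay at or below 5.25 in every library but 1. Its normalized FPKM was 2.98, 21.1, 2.66, 3.60 and 3.28 in the CD150hi HSC of WT mice and 2.82, 3.26, 3.21, 3.05 and 3.68 in those of 5A3+/del mice. The value of 21.1 belonged to WT mouse 2, whose CD150hi library is 1 of the 2 that stood apart, and the CD150lo and CD150neg libraries of the same mouse, at 3.45 and 5.25, were also the highest of their groups. Among the genes next to Foxo4, Snx12 was at 20.9 in that library and 9.73 to 15.6 in the other WT CD150hi libraries, Il2rg at 29.01 against 18.1 to 27.1, and Med12 at 31.1 within the 25.1 to 34.3 of the others. Gm614, at 0.124, and U11, at 15.8, also lay within the range of the other WT CD150hi libraries. The genotype difference in CD150hi HSC was -0.46 (SE 0.30, adjusted p = 0.54) with all libraries and turned to 0.03 without WT mouse 2. In WT mouse 3, the one with Xist, Foxo4 was 2.66, 2.01 and 2.32 in the 3 populations, the lowest value of each WT group.

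Stk11, which encodes the kinase upstream of AMPK, was 9.12, 8.58, 9.93, 7.44 and 7.80 in the CD150hi HSC of WT mice 1 to 5 and 8.47, 6.72, 9.00, 6.33 and 8.21 in those of 5A3+/del mice. In CD150lo HSC it was 6.05, 6.55, 8.69, 8.22 and 6.61 in WT and 6.96, 6.76, 7.65, 7.55 and 7.03 in 5A3+/del mice, and in CD150neg MPP 11.5, 7.56, 6.85, 5.92 and 7.98 in WT and 8.90, 7.04, 7.38 and 6.92 in 5A3+/del mice. The genotypes overlapped in every population, with means over both of 8.16 ± 1.11 (SD, n = 10) for CD150hi HSC, 7.21 ± 0.814 (n = 10) for CD150lo HSC and 7.78 ± 1.61 (n = 9) for CD150neg MPP. Its highest value was 11.5, in the CD150neg MPP of WT mouse 1, and its lowest 5.92, in those of WT mouse 4, so the whole range lay within 1 group. CD150hi HSC differed from CD150lo HSC by 0.15 (95% interval -0.04 to 0.35, adjusted p = 0.398) and from CD150neg MPP by 0.07 (-0.13 to 0.27, adjusted p = 0.714). Prkaa1, for the catalytic subunit that LKB1 phosphorylates, had its widest spread in the CD150hi HSC of WT mice, at 8.96, 7.43, 12.2, 12.0 and 14.1, a range that contained all 5 values of 5A3+/del CD150hi HSC (10.1 to 13.1). Its means were 11.2 ± 1.98 for CD150hi HSC, 11.8 ± 1.36 for CD150lo HSC and 11.7 ± 1.85 for CD150neg MPP, with a difference between the end populations of -0.06 (-0.28 to 0.15, adjusted p = 0.774). Neither kinase gene passed any of the tests.

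No TSC or mTOR gene passed a test between populations. Tsc1 was 6.85 ± 0.992, 6.49 ± 1.35 and 7.15 ± 0.915 in CD150hi HSC, CD150lo HSC and CD150neg MPP, and Tsc2 was 11.1 ± 1.43, 10.7 ± 0.946 and 10.8 ± 1.77. Their differences between CD150hi HSC and CD150neg MPP were -0.06 (95% interval -0.26 to 0.14) and 0.04 (-0.14 to 0.23). Mtor was 7.22 ± 1.23, 7.83 ± 1.08 and 7.76 ± 1.05 in the same order, and Rptor 3.63 ± 0.746, 3.54 ± 0.404 and 3.88 ± 0.684. The CD150hi to CD150neg difference was -0.10 for Mtor (-0.29 to 0.10) and -0.07 for Rptor (-0.28 to 0.13), and the adjusted p of these 4 genes ran from 0.604 to 0.817. Mtor was 8.02, 8.07, 7.04, 7.27 and 5.54 in WT and 9.35, 5.07, 7.63, 7.01 and 7.20 in 5A3+/del CD150hi HSC, so that the extreme values of both groups came from 5A3+/del mice 1 and 2. Tsc1 was 5.39, 6.63, 8.99, 7.03 and 7.15 in WT and 4.55, 5.44, 7.76, 5.25 and 6.76 in 5A3+/del CD150lo HSC, where its genotype difference was widest and the groups still overlapped. Tsc2 reached its highest value, 14.4, in the CD150neg MPP of WT mouse 2 and its lowest, 8.43, in those of 5A3+/del mouse 3. Rptor, which recruits substrates to mTORC1, ran from 2.53 to 4.74, both ends in WT libraries.

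For Stk11, Prkaa1, Tsc1, Tsc2, Mtor and Rptor, the 95% intervals of all 3 population differences lay within 0.35 of 0 on the log2(FPKM + 1) scale. Exons of Tsc2 share 578 bases with Pkd1 on the opposite strand, and those of Stk11 share 232 bases with Dos and those of Foxo1 674 with RP24-337A16.1; the strand used in counting was not stated, so these reads cannot be told apart.

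None of the 9 genes passed the other population comparisons. Between CD150hi and CD150lo HSC, where 7.64% of all genes were called, 0 of 9 passed limma and 1 (Foxo1) had an unadjusted p under 0.05, as did 19.5% of all genes. Between CD150lo HSC and CD150neg MPP, where 0.292% were called, 0 of 9 passed and 1 (Foxo3) had an unadjusted p under 0.05, as did 7.93% of all genes.

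The comparison of 5A3+/del with WT cells asks whether loss of 1 copy of the 5A3 interval altered these regulators. In limma, 0 of 9 genes passed in CD150hi HSC, CD150lo HSC or CD150neg MPP, where 0.156%, 0.0324% and 0.0454% of all genes were called. At an unadjusted p under 0.05 there was 1 of 9 in CD150hi HSC and 1 in CD150lo HSC, Foxo3 both times, and 0 in CD150neg MPP. Among all genes 13.1%, 6.87% and 4.27% reached that unadjusted level, so that 1 of 9 members is near the background. Foxo3 in CD150hi HSC was the sole case without overlap, with all 5 WT libraries (33.0 to 38.8) below all 5 5A3+/del libraries (39.4 to 51.3). Such a separation, in either direction, occurred in 2.58% of all genes for CD150hi HSC, 1.63% for CD150lo HSC and 1.51% for CD150neg MPP.

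The mean level of Foxo3 was 44.9 ± 4.37 in 5A3+/del and 36.7 ± 2.38 in WT CD150hi HSC (SD, n = 5 each), a difference of 0.28 in log2(FPKM + 1) (SE 0.09, 95% interval 0.09 to 0.48, limma adjusted p = 0.18). In CD150lo HSC the means were 48.1 ± 2.22 and 40.0 ± 4.18, a difference of 0.27 (SE 0.09, adjusted p = 0.423). In CD150neg MPP the means were 50.1 ± 5.14 and 50.1 ± 1.40, with a difference of -0.01 (95% interval -0.21 to 0.20, adjusted p = 1). Over the alternatives the adjusted p in CD150hi HSC ran from 0.0889 to 0.589, and the difference was 0.20 without the 2 libraries that stood apart. The summed granulocyte and monocyte markers ran from 247 to 704 FPKM in WT and from 220 to 283 in 5A3+/del CD150hi HSC. The median of S100a8 was 146 in WT and 8.17 in 5A3+/del. Elane and Mpo had means of at least 1 FPKM in WT and under 1 in 5A3+/del. Lyz2, present in every library, did not go this way, with medians of 175 and 191. The part of these markers in the Foxo3 difference was not tested.

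Foxo1 did not separate by genotype, with differences of 0.12 (95% interval -0.25 to 0.50), -0.07 (-0.44 to 0.31) and -0.21 (-0.61 to 0.19) in CD150hi HSC, CD150lo HSC and CD150neg MPP. Stk11 differed by -0.14 (-0.41 to 0.14), 0.00 (-0.27 to 0.28) and -0.04 (-0.33 to 0.25), and Mtor by 0.00 (-0.27 to 0.27), 0.18 (-0.09 to 0.46) and -0.05 (-0.34 to 0.24). The largest difference among the TSC, mTOR, LKB1 and AMPK genes was that of Tsc1 in CD150lo HSC, -0.21 (-0.49 to 0.06, adjusted p = 0.865). Rptor was lower in 5A3+/del cells in each population, by a fold of 0.94, 0.94 and 0.93 on the log2(FPKM + 1) scale, none of which passed. The p-values measure the spread between mice, with the libraries of 1 mouse taken as separate samples.

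**Figure D3:**
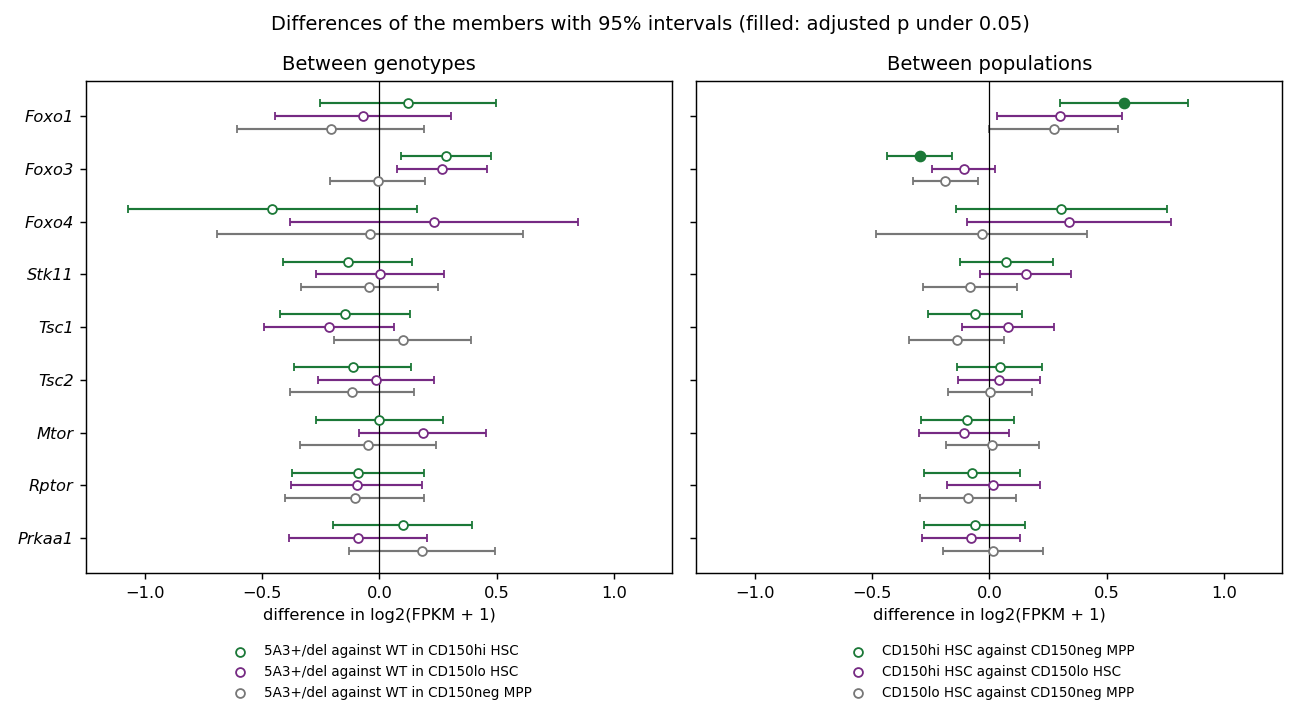
Differences in log2(FPKM + 1) (horizontal axis) of the 9 genes, with 95% intervals as bars: on the left 5A3+/del minus WT in each population, on the right between populations averaged over the genotypes. Filled points passed an adjusted p of 0.05, which applies to Foxo1 at 0.57 and Foxo3 at -0.30 between CD150hi HSC and CD150neg MPP; the Foxo4 intervals are the widest.

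The 9 genes did not move as a block over the 29 libraries. The pairwise Pearson correlations of normalized log2 values of Foxo4 depended on the CD150hi HSC library of WT mouse 2: that with Prkaa1 was -0.520 over all libraries and -0.133 over the other 28, and that with Tsc1 was 0.0218 and -0.415. Over those 28 libraries the pairs ran from -0.428, for Mtor and Prkaa1, to 0.428, for Foxo3 and Mtor, and Foxo1 and Foxo3 had -0.280 (-0.342 over all 29). The genes most like Foxo3 in pattern were Pkm2 (r = 0.857), 2310044G17Rik (0.844) and Sh3bgrl3 (0.805). Those most like Stk11 were Gm12097 (0.70), Ppp1r12b (0.677) and Prpf18 (0.649), and those most like Mtor were Dcp1a (0.791), Atxn1 (0.735) and Ift57 (0.716). These values are descriptions over libraries that share mice and populations.

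The partners of the 9 genes were followed in 8 lists of 128 genes, of which 117 passed the filter on low values. Between CD150hi HSC and CD150neg MPP 10 of these rose and 10 fell, which is 20 of 117 beside the 13.2% of all genes, and the median difference was -0.03 against 0.00 over all genes. Between CD150hi and CD150lo HSC 5 rose and 3 fell, which is 8 of 117 beside 7.64% of all genes. Between CD150lo HSC and CD150neg MPP only Grb10 rose, 1 of 117 beside 0.292% of all genes. By limma 0 of 117 passed between genotypes in any population, with 13, 5 and 4 genes at an unadjusted p under 0.05, beside 13.1%, 6.87% and 4.27% of all genes. Without the 2 libraries that stood apart, 16 of the 20 genes still passed between CD150hi HSC and CD150neg MPP, and Cited2, Pik3cg and Rbl2 were among those that did not; without WT mouse 3, 18 did, and Prr5 was among those that did not.

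Among the substrates of mTORC1, Grb10, an adaptor that dampens insulin receptor and PI3K signaling, had the largest positive difference of all 117. Its normalized FPKM was 16.5 to 25.2 in the 10 CD150hi libraries, 8.59 to 11.2 in the 10 CD150lo libraries and 3.74 to 7.07 in the 9 CD150neg libraries. These ranges did not overlap, but the share of all genes that separate so between populations was not counted. The difference was 1.67 between CD150hi HSC and CD150neg MPP (SE 0.10, adjusted p = 6.37e-13), 1.00 between the HSC populations (adjusted p = 1.85e-08) and 0.67 between CD150lo HSC and CD150neg MPP (adjusted p = 0.00109). None of the other 10 mTORC1 substrates passed in these comparisons, where 13.2%, 7.64% and 0.292% of all genes were called.

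Of the mTOR complex partners, Deptor, an inhibitory subunit of both complexes, was 8.37 ± 1.202 in CD150hi HSC and 4.33 ± 1.72 in CD150neg MPP (SD), a difference of 0.85 (SE 0.15, adjusted p = 0.00011). The mTORC2 subunit gene Prr5 fell by 0.69 in CD150hi HSC, with means of 2.69 and 4.74 (limma adjusted p = 0.047). Its relative Prr5l rose by 0.47 at low levels, with means of 1.40 and 0.70. Thus 3 of 9 partners passed, beside 13.2% of all genes. None of 28 genes for Rheb, the Rag GTPases and amino acid sensing passed limma in any comparison, with 1 of 28 at an unadjusted p under 0.05 between CD150hi HSC and CD150neg MPP, where 24.9% of all genes were. That list holds the subunits of Ragulator, which helps bring mTORC1 to the lysosome, and those of the GATOR complexes.

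Among 15 PI3K and AKT genes, the regulatory subunit Pik3r1 and the catalytic subunit Pik3cd were higher in CD150hi HSC. Pik3r1 was 52.2 ± 8.57 against 38.1 ± 3.95 in CD150neg MPP (difference 0.44, SE 0.09, adjusted p = 0.000486), and Pik3cd 23.5 ± 4.34 against 16.7 ± 2.49 (difference 0.46, SE 0.11, adjusted p = 0.0026). In this comparison 13.2% of all genes were called. For Pik3r1 the means were 45.7 and 39.7 in WT mice, and 58.6 and 36.2 in 5A3+/del mice. It was higher in CD150hi HSC in 4 of 5 WT and 4 of 4 5A3+/del mice. No gene passed the test of a difference of this gap between genotypes. The catalytic subunit Pik3cg fell by 0.28, and Inpp5d, which encodes the lipid phosphatase SHIP1, fell by 0.43. Pik3r1 and Pik3cd also passed between CD150hi and CD150lo HSC, with differences of 0.42 and 0.44.

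Of 12 LKB1 and AMPK partners 2 passed between CD150hi HSC and CD150neg MPP, beside 13.2% of all genes. Cab39l, which encodes MO25 beta, a scaffold of the LKB1 complex, was 13.0 ± 3.51 in CD150hi HSC and 8.16 ± 1.67 in CD150neg MPP (difference 0.59, SE 0.14, adjusted p = 0.00349). Prkab1, the AMPK beta 1 subunit gene, was 9.88 ± 2.48 and 14.4 ± 2.30 (difference -0.53, SE 0.13, adjusted p = 0.00406). Among 14 tested LKB1-dependent kinases and AMPK substrates, only Brsk1 passed, beside the same 13.2%. Its difference was -0.47 at a level near 1 FPKM.

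The FoxO target genes showed no common direction between CD150hi HSC and CD150neg MPP. Of 20 tested, 4 rose and 4 fell, beside 13.2% of all genes called. Higher in CD150hi HSC were Cited2, a transcriptional coregulator (0.75), Gabarapl1, an autophagy gene (0.46), Txnip, an inhibitor of thioredoxin (0.44), and Rbl2, a pocket protein gene that holds cells out of cycle (0.27). The Gabarapl1 means in CD150hi HSC and CD150neg MPP were 71.1 and 59.4 in WT mice, and 92.4 and 58.0 in 5A3+/del mice. Among the lower ones were Bcl2l11, which encodes the death-promoting protein BIM (-0.91), Bcl6, a transcriptional repressor (-0.55), and Ccng2, which encodes cyclin G2 (-0.42). Bcl2l11 was 1.14 to 3.52 in the 10 CD150hi libraries and 3.40 to 6.78 in the 9 CD150neg libraries, which overlap at their ends. None of 8 tested FoxO family members and modifiers passed, with 2 at an unadjusted p under 0.05, beside the 24.9% of all genes. The list names genes by reports from several tissues, and their control by FoxO factors was not measured in these cells.

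**Figure D4:**
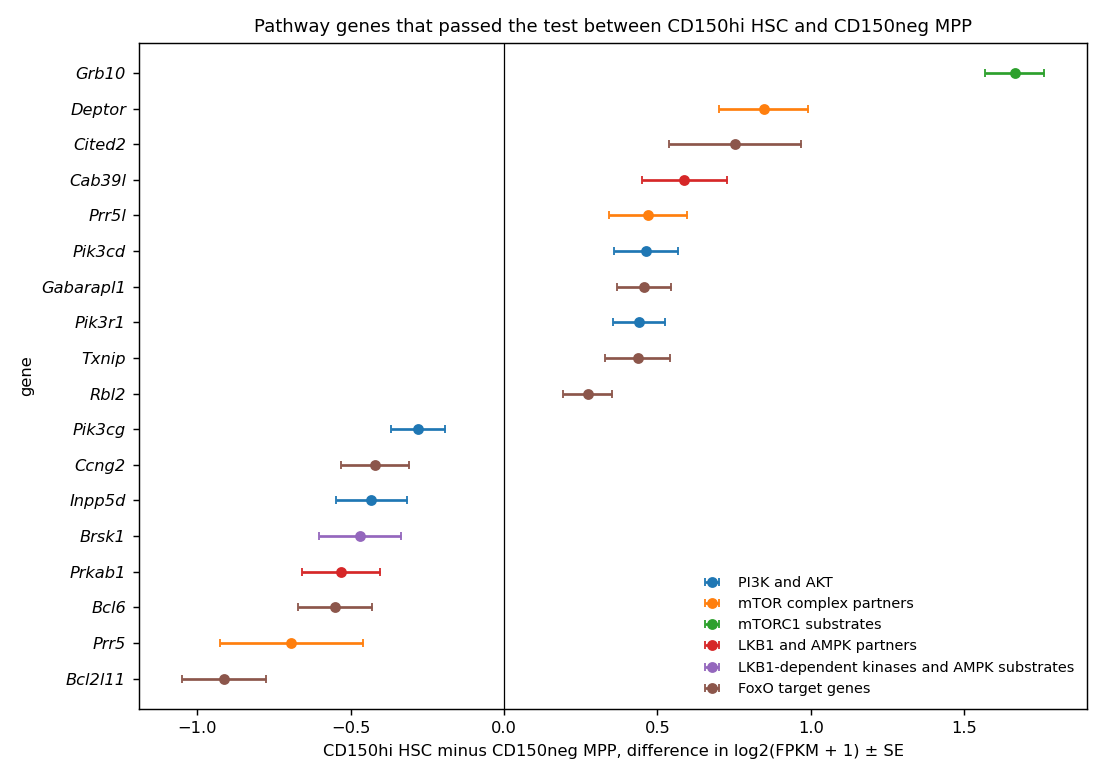
Pathway genes that passed the test between CD150hi HSC and CD150neg MPP, 18 of 20, ordered by their difference in log2(FPKM + 1) (horizontal axis, CD150hi minus CD150neg, bars ± SE) and colored by list. Grb10 at 1.67 and Bcl2l11 at -0.91 mark the ends, and the FoxO target genes lie on both sides of 0.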

How the data were processed

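The authors sorted the cells, amplified 10 ng of total RNA, sequenced paired reads of 100 bases and mapped them to mm9; the submitters' processing notes name Bowtie 0.12.2 and HTSeq. The values used are the FPKM values the authors deposited. 1 column whose name matched no sample was not used. Fragments per library were recovered from steps between low values (98.24% to 98.69% whole, tolerance 0.02). Strand and counting mode were not given in the sources used here.

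The 15409 genes that reached an FPKM of 1 in 4 or more libraries were taken as log2(FPKM + 1), quantile normalized and fitted with limma 3.58.1 in R 4.3.3 as 6 group means, two-sided, with Benjamini-Hochberg adjustment over all genes and a threshold of 0.05. Normalized FPKM is this scale turned back. Population comparisons average both genotypes. The description label ties the libraries of 1 mouse, whose residuals correlated by a median of 0.0786 (-0.0418 to 0.235, 28 pairs); the mouse as a block is an alternative. The 3 alternatives that left out chosen libraries or WT mouse 3 were added after seeing the data. Alternatives also covered the pseudocount, filter, scaling, variance trend, samples fitted, age, each genotype alone and each mouse left out. The test was checked on data simulated with the spread of these libraries. In 5A3+/del CD150hi HSC it called 75% of 100 genes changed by 1 in log2, and 96% of 100 changed by 2. Smaller changes, such as all genotype differences of the members, were not simulated, and the simulated libraries of 1 mouse were not tied.

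The members and lists were chosen with earlier results of these data known. Named were all members, up to 20 called list genes per comparison, and the 3 genes most correlated with Foxo3, Stk11 and Mtor. Some list genes are not reported here. Genes next to Foxo4 were chosen after its values were seen.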

Additional observations from a re-analysis of the deposited data

Results flagged for a closer look

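In 6 of the 54 groups of libraries formed by gene, genotype and population, 1 library lay far from the others by Dixon's criterion, where chance gives about 1 in 20 groups, or 2.7 of 54. The 54 groups share libraries and are not independent. Of the 6 cases, 4 came from the CD150neg MPP and CD150hi HSC libraries of WT mouse 2. In its CD150neg MPP, Foxo1 was 16.4 (8.86 to 9.86 in the other 4 WT libraries), Mtor 10.1 (6.98 to 7.66) and Foxo4 5.25 (2.32 to 3.14), and in its CD150hi HSC Foxo4 was 21.1 (2.66 to 3.60). The other cases were Foxo3 in 5A3+/del CD150lo HSC of mouse 2, at 44.3 (48.4 to 49.8 in the others), and Prkaa1 in WT CD150lo HSC of mouse 1, at 10.0 (12.4 to 13.1). All values are normalized FPKM.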

How the results depend on the processing

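The counts of members that passed were as reported in 178 of 180 recomputed cases. The exceptions were CD150hi HSC against CD150neg MPP with WT alone, where 1 member passed (Foxo3, while Foxo1 had 0.41, adjusted p = 0.183), and with 5A3+/del alone, where 1 passed (Foxo1, while Foxo3 had -0.15, adjusted p = 0.484); each uses fewer samples. Leaving out each mouse in turn gave 2 members in this comparison every time and 0 in the 8 others. With the mouse as a replicate block the counts stayed at 2 and 0, and the numbers of all genes called between genotypes moved from 24, 5 and 7 to 56, 8 and 7. Equal numbers in WT and 5A3+/del are different mice, with residual correlations of -0.0338 to 0.0807, and a block on the number gave 16, 8 and 4 genes. Over all alternatives the counts of genes called between genotypes ran from 0 to 100, 0 to 74 and 0 to 9 along the CD150 gate from high to negative. Of the population comparisons, CD150hi HSC against CD150neg MPP ran from 949 to 2210, CD150hi against CD150lo HSC from 490 to 1385 and CD150lo HSC against CD150neg MPP from 6 to 61. The tests of a difference between genotypes gave 0 to 2, 0 to 1 and 0 to 13 genes.

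Of 1107 recomputed differences of single members, 1039 kept direction and call, and 66 changed direction, none of them past the threshold with all libraries; the cause was not tested. In 5A3+/del against WT in CD150hi HSC, Mtor was -0.0014 with a pseudocount of 0.1, -0.015 without normalization, -0.0025 with age as a covariate and -0.047 without the 2 libraries that stood apart (an alternative chosen after seeing the data), which also took Foxo4 to 0.059. In CD150lo HSC, Stk11 was -0.0012 with median scaling. In CD150neg MPP, Foxo3 was 0.024 without normalization, 0.040 with median scaling and 0.0059 with the number as a replicate block. In CD150hi HSC against CD150neg MPP, Tsc1 was 0.061 with WT alone and Prkaa1 0.017 without the 2 libraries. In CD150hi against CD150lo HSC, Prkaa1 was 0.0018 without them, and with 5A3+/del alone Foxo4 was -0.0051, Tsc2 -0.0080 and Prkaa1 0.017. In CD150lo HSC against CD150neg MPP, Tsc2 was -0.052 without normalization, -0.0074 with median scaling, -0.020 with the mouse as a replicate block and -0.048 with WT alone. There Mtor was -0.037 without normalization and -0.10 with WT alone, Prkaa1 -0.041 without normalization and -0.12 with 5A3+/del alone, Tsc1 0.017 with WT alone and Foxo4 0.10 with 5A3+/del alone.

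Leaving out each mouse in turn, directions also changed within these ranges. In 5A3+/del against WT in CD150hi HSC, Foxo1 ran from -0.0037 to 0.21, Foxo4 from -0.62 to 0.027, Mtor from -0.086 to 0.11 and Prkaa1 from -0.018 to 0.19. In CD150lo HSC, Foxo1 ran from -0.18 to 0.069, Stk11 from -0.049 to 0.065 and Tsc2 from -0.063 to 0.031. In CD150neg MPP, Foxo3 ran from -0.062 to 0.056, Foxo4 from -0.11 to 0.12, Stk11 from -0.13 to 0.085 and Mtor from -0.096 to 0.035. Between populations, Tsc2 ran from -0.022 to 0.096 in CD150hi HSC against CD150neg MPP and Rptor from -0.0100 to 0.047 in CD150hi against CD150lo HSC. In CD150lo HSC against CD150neg MPP, Foxo4 ran from -0.072 to 0.0074, Stk11 from -0.15 to 0.0080, Tsc2 from -0.052 to 0.055, Mtor from -0.030 to 0.086 and Prkaa1 from -0.028 to 0.071. Each member had at least 146 fragments in every library.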
